A study of Homo sapiens with 12 samples.

Results

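Across the protein-coding genes of MOLM-13 leukaemia cells, 23 genes had a higher level after treatment with a FLT3 inhibitor and a menin inhibitor together while their level with either inhibitor alone stayed near that of the solvent control. They were chosen by a rule on group means. The combination mean had to reach 5 CPM (reads of a gene scaled to the same total of gene counts in every library) and at least 2 times the mean of every other group, with 0.5 CPM added to both means. Each single-agent mean, again with 0.5 CPM added, had to lie between 0.77 and 1.3 times the DMSO mean. Of 60668 gene rows, 19916 were protein-coding, 9776 of these reached 5 CPM with the combination, 141 passed the fold against all 3 other groups, and 23 also stayed within the band under both single agents.

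The 4 groups were MOLM-13 cells treated for 8 days with gilteritinib and MI-3454 together, with gilteritinib alone, with MI-3454 alone or with DMSO, 3 libraries each. MOLM-13 is a single established acute myeloid leukaemia line. It carries the MLL-AF9 fusion gene and, in FLT3, an internal tandem duplication, and every group shares both lesions. Gilteritinib inhibits the FLT3 receptor kinase, and MI-3454 blocks the binding of menin to MLL1. The sources used here state no dose. Cells were seeded in triplicate, so p-values reflect how far separate cultures of 1 line differed. RNA depleted of ribosomal RNA was sequenced, and counts in genes ranged from 6472940 to 12051457 per library.

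Menin tethers MLL1 and its fusion proteins to chromatin at a limited set of genes, and FLT3 with the internal duplication signals constantly to STAT5, RAS and PI3K. Blocking either pathway in leukaemia cells of this genotype is known to release myeloid maturation. Among the 23 genes, 3 belong to the best known transcriptional response of the aryl hydrocarbon receptor (AHR), a ligand-activated transcription factor that pairs with ARNT and binds dioxin response elements. CYP1B1 encodes a cytochrome P450 that oxidises steroids and polycyclic aromatic hydrocarbons, AHRR a repressor that competes with AHR for ARNT, and TIPARP an ADP-ribosyltransferase that modifies AHR and lowers its activity. The others encode receptors, channels, cyclases, trafficking proteins and enzymes with no single pathway in common.

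Promoter sequences were examined because 3 of the genes are known AHR targets. Below are the 250 bases before the start site of AHRR and TIPARP, of RAB4B, which holds a longer form of the element, and of MS4A4E, one of the genes with the highest ratios, which holds none. Capitals mark GCGTG, the core of the dioxin response element, or its reverse complement CACGC. Sequences are from RefSeq on GRCh38.p14, written 5′ to 3′ on the strand of the gene, and cover chr5:321464-321713 (plus strand) for AHRR, chr3:156674340-156674589 (plus strand) for TIPARP, chr19:40777997-40778246 (plus strand) for RAB4B and chr11:60243138-60243387 (minus strand) for MS4A4E.
AHRR: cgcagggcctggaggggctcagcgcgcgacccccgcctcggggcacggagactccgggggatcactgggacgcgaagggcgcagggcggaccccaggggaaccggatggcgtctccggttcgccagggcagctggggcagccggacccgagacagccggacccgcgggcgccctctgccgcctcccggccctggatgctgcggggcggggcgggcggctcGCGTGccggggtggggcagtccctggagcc
TIPARP: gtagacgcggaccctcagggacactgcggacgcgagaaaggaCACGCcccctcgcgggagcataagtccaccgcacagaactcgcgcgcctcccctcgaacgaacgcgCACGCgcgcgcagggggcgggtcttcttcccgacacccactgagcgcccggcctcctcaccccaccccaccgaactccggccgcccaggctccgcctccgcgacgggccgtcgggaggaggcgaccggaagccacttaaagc
RAB4B: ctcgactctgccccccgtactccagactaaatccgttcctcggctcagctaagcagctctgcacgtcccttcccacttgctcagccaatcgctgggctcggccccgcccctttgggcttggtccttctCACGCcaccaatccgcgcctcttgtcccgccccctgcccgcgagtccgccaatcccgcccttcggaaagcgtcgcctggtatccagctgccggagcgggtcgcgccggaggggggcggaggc
MS4A4E: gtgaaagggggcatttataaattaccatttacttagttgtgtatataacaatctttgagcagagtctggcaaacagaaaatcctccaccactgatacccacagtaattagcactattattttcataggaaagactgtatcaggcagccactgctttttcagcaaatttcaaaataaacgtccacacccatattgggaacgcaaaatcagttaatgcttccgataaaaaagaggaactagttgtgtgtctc

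The table held a promoter for 20 of the 23 genes, and the genes without an entry were IL31RA, CYP1B1 and ADGRD1. In the window of 250 bases before to 50 bases after the start site, GCGTG occurred on either strand in 12 of 20 promoters, a share of 60.0% (exact binomial 95% interval 36.1% to 80.9%). All 27305 promoters of the table held it in 36.3% of cases, and the 9371 promoters of tested protein-coding genes in 51.4%. The interval of the 20 promoters included both of these shares. Among the 9 promoters of genes that the rule also selected with TMM-scaled CPM, 4 held GCGTG (44.4%), below the share of the tested protein-coding genes. TNGCGTG, which contains GCGTG and so overlaps it, occurred in 3 of 20 promoters, those of AHRR, ADAP2 and RAB4B, a share of 15.0%, against 7.26% of the tested protein-coding genes and 5.51% of all promoters. AHRR held its match 30 bases before the start site, and TIPARP held its 2 matches 208 and 142 bases before it. NUAK2 held 3 matches. A match is a string of letters in this window, and CYP1B1, whose promoter was not among those read, cannot be placed in the count. Both motifs were added after the 23 genes were known.

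Of the other motifs searched on both strands, CCAAT (NF-Y) occurred in 10 of 20 promoters (50%, against 35.7% of all promoters), CCACCC (KLF) in 7 (35.0%, against 33.4%) and GGAAGT (ETS) in 6 (30%, against 23.2%). TTCNNNGAA (STAT) occurred in 3, those of ACP3, ADCY4 and ZNF586 (15.0%, against 7.88%). TATAAA occurred in 2, those of MS4A4E and NUAK2 (10.0%, against 12%). TTGCNNAA (C/EBP) occurred in MS4A4E alone (5.00%, against 10.6%) and GAAANNGAA (IRF) in ACP3 alone (5.00%, against 8.29%). TGANTCA (AP-1), CACGTG (E-box), TGTTTAC (forkhead) and TGCGCATG (NRF1) were found in 0 of 20, where all promoters held them in 7.76%, 7.43%, 3.41% and 2.26% of cases. No share was tested, and the shares of these motifs in promoters of tested protein-coding genes were not computed. The median promoter of the 20 genes had 66.2% G and C and 26 CG pairs, against 65.3% and 26 in promoters of tested protein-coding genes. All promoters had medians of 58.3% and 14, so they differ in make-up from the 20.

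The values that follow chose the 23 genes, so they are a description and carry no test. IL31RA, the ligand-binding subunit of the interleukin-31 receptor, had the largest smallest ratio (ENSG00000164509.15, GRCh38 chromosome 5, 55851379 to 55922853, plus strand, GENCODE 29). It had 21.9, 18.1 and 24.6 CPM in the combination libraries, against 1.49, 1.55 and 1.86 CPM with gilteritinib, 2.12, 2.23 and 1.91 CPM with MI-3454 and 2.16, 2.06 and 2.33 CPM with DMSO. The lowest combination library thus lay far above every other library, and the 9 others lay close together. With 0.5 CPM added, the combination mean was 10.3 times that of gilteritinib, 8.52 times that of MI-3454 and 8.21 times that of DMSO. IL31 itself, the cytokine ligand, had no counts in any group, and OSMR, the other receptor subunit, had a mean of 0.0515 CPM with the combination and 0 elsewhere. Of the shared downstream parts, the kinase JAK1 averaged 166 CPM with the combination, 114 CPM with gilteritinib, 131 CPM with MI-3454 and 114 CPM with DMSO. In the same order, the kinase JAK2 averaged 84.2, 38.9, 53.9 and 45 CPM and STAT3 180.3, 145, 167 and 148 CPM. STAT5A and STAT5B had log2 changes of 0.19 and -0.02 for the combination against DMSO.

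CYP1B1 (ENSG00000138061.12, chromosome 2, 38066973 to 38109902, minus strand) was the most abundant of the 23 per length, at 98.4 CPM per kilobase of exon with the combination, followed by MS4A4E at 22.2, TIPARP at 16.4 and ACP3 at 8.02. CYP1B1 had 563, 589.7 and 623 CPM in the combination libraries, against 166, 122 and 169 CPM with gilteritinib, 156, 201 and 152 CPM with MI-3454 and 134, 122 and 143 CPM with DMSO. The combination libraries lay close together and far above every other library of this gene. Both single-agent means were above the DMSO mean, by 1.14 times with gilteritinib and by 1.27 times with MI-3454, and 1.27 is close to the upper edge of the band.

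AHRR (ENSG00000063438.17, chromosome 5, 304176 to 438291, plus strand) had 17.1, 19.6 and 21.6 CPM with the combination, against 7.63, 7.31 and 7.77 CPM with gilteritinib, 6.46, 8.18 and 6.75 CPM with MI-3454 and 7.01, 6.82 and 6.54 CPM with DMSO. Its 9 other libraries lay in a narrow range, and the RefSeq start site used above lies inside this GENCODE span. TIPARP (ENSG00000163659.13, chromosome 3, 156673235 to 156706770, plus strand) had 75.2, 84.1 and 88.7 CPM with the combination, against 40.8, 27.8 and 41.9 CPM with gilteritinib, 30.4, 31.7 and 24.3 CPM with MI-3454 and 32.0, 23.4 and 32.7 CPM with DMSO. For TIPARP 2 gilteritinib libraries lay above all DMSO libraries, and the gilteritinib mean, 1.25 times that of DMSO, was the highest gilteritinib ratio among the 23 genes.

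Other AHR target genes were listed after the 23 were known and are therefore given without a test. NQO1 did not share this pattern, and the others had too few reads to show or lack it. CYP1A1, the classic liver target, averaged 0.230 CPM with the combination, 0.138 CPM with gilteritinib and 0.102 CPM with MI-3454, and had no counts with DMSO. NQO1, a quinone reductase, had 5.59, 4.19 and 5.56 CPM with the combination, against 8.46, 7.09 and 8.2 CPM with gilteritinib, 4.34, 4.99 and 4.73 CPM with MI-3454 and 4.85, 4.93 and 5.99 CPM with DMSO, so that the gilteritinib libraries were highest. ALDH3A1 averaged at most 0.285 CPM in any group, and UGT1A6 and CYP1A2 less than that.

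The receptor's own gene did not follow its targets. AHR had 31.9, 29.9 and 31.8 CPM with the combination, against 29.1, 24.0 and 26.4 CPM with gilteritinib, 49.3, 44.6 and 34.1 CPM with MI-3454 and 54.0, 44.2 and 46.0 CPM with DMSO. The combination and gilteritinib libraries all lay below the DMSO libraries. ARNT, the DNA-binding partner, had 147, 156 and 167 CPM with the combination, against 88.8, 74.4 and 86.8 CPM with gilteritinib, 123, 129.7 and 106 CPM with MI-3454 and 81.4, 67 and 73.4 CPM with DMSO, so that both groups given MI-3454 lay above the others. The log2 changes of the combination against DMSO were -0.73 ± 0.12 (SE) for AHR and 0.98 ± 0.10 for ARNT in the edgeR fit. Chaperone genes of the cytosolic complex that holds AHR before it binds a ligand had log2 changes of -0.84 for HSP90AA1, -0.77 for HSP90AB1 and -0.79 for PTGES3. Of the enzymes that make AHR ligands from tryptophan, IDO1, IDO2 and TDO2 averaged at most 0.0598 CPM in any group, and IL4I1, a secreted amino acid oxidase, averaged 1.48 CPM with the combination, 9.17 CPM with gilteritinib, 3.48 CPM with MI-3454 and 20.2 CPM with DMSO.

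**Figure D1:**
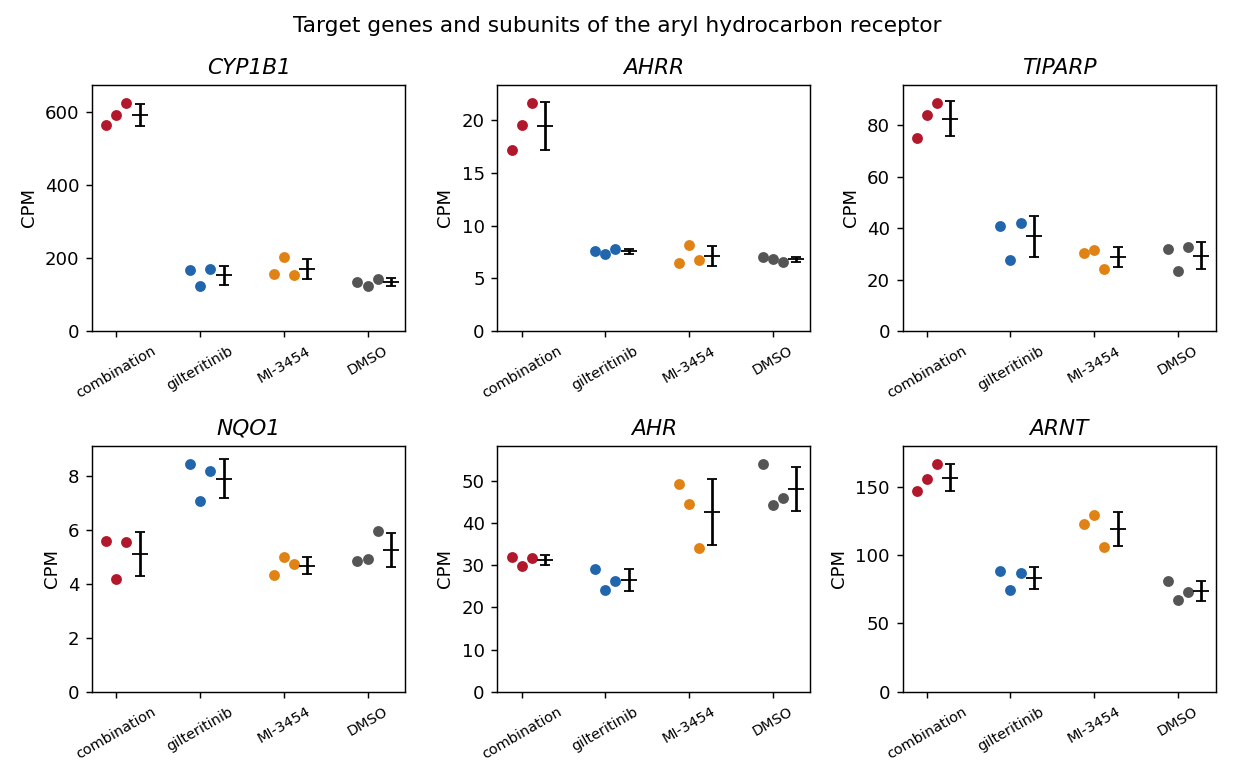
CPM of 3 selected AHR target genes (top row) and of NQO1, AHR and ARNT (bottom row) in each library, by group, with the mean and SD of 3 libraries as a horizontal mark and bar beside the points. CYP1B1, AHRR and TIPARP are highest in all 3 combination libraries, NQO1 in the gilteritinib libraries, and AHR lies near 31.2 CPM with the combination and 48.1 CPM with DMSO.

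Among genes of membrane proteins, MS4A4E (ENSG00000214787.10, chromosome 11, 60201253 to 60243088, minus strand), of the family of membrane-spanning proteins that includes CD20, had 25.9, 35.2 and 42.5 CPM with the combination, against 9.63, 5.98 and 7.98 CPM with gilteritinib, 8.68, 14.1 and 6.95 CPM with MI-3454 and 7.10, 8.16 and 8.31 CPM with DMSO. All 3 combination libraries lay above the rest, and MI-3454 2 was the highest of the others. MS4A6A, a family gene of the same cluster, stayed outside the 23 because its gilteritinib mean was 0.755 times that of DMSO. It averaged 73.6 CPM with the combination, 23.8 CPM with gilteritinib, 32.2 CPM with MI-3454 and 31.7 CPM with DMSO. MS4A3, a granulocyte precursor gene of the same cluster, followed MI-3454 instead, with means of 126 CPM with the combination, 24.8 CPM with gilteritinib, 131 CPM with MI-3454 and 21.1 CPM with DMSO. ADGRD1, an adhesion receptor that raises cyclic AMP, had 11.3, 11.9 and 12.1 CPM with the combination, against 3.90 to 5.91 CPM with gilteritinib, 4.90 to 5.21 CPM with MI-3454 and 4.77 to 6.10 CPM with DMSO. SLC38A6, of the SLC38 family of amino acid transporters, averaged 8.14 ± 2.45 CPM (SD, n = 3) with the combination, 2.31 ± 0.386 CPM with gilteritinib, 3.32 ± 0.897 CPM with MI-3454 and 3.11 ± 0.701 CPM with DMSO. Its relatives differed in direction, with log2 changes against DMSO of -1.43 for SLC38A1, -1.14 for SLC38A2, 0.20 for SLC38A10, 0.69 for SLC38A7 and 0.86 for SLC38A9, where SLC38A6 had 1.26. KCNIP2, a calcium-binding subunit of Kv4 potassium channels, averaged 6.35 ± 1.21 CPM with the combination, 1.77 ± 0.516 CPM with gilteritinib, 2.30 ± 1.42 CPM with MI-3454 and 1.87 ± 0.374 CPM with DMSO.

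Signalling enzymes and a secreted protein formed a further set. ADCY4 (ENSG00000129467.13, chromosome 14, 24318349 to 24335093, minus strand), an adenylyl cyclase that makes cyclic AMP, had 12.8, 15.6 and 14.2 CPM with the combination, against 4.65, 4.10 and 6.34 CPM with gilteritinib, 5.68, 5.63 and 6.75 CPM with MI-3454 and 3.96, 5.83 and 6.43 CPM with DMSO. The groups other than the combination overlapped throughout. Other cyclases differed from this pattern. ADCY7 averaged 332 CPM with the combination, 150.5 CPM with gilteritinib, 217 CPM with MI-3454 and 136 CPM with DMSO, whereas ADCY3 averaged 12.4, 45.2, 24.2 and 54.3 CPM in the same order and ADCY9 had a log2 change of -0.03 against DMSO. ACP3, a phosphatase that also releases adenosine from AMP, had 33.1, 33.2 and 34.6 CPM with the combination, the narrowest spread of the 23, against 13.3 to 15.9 CPM with gilteritinib, 13.1 to 18.1 CPM with MI-3454 and 12 to 15.3 CPM with DMSO. NUAK2, a kinase related to AMPK, had 6.30, 5.32 and 5.41 CPM with the combination, against 1.16 to 1.77 CPM with gilteritinib, 1.70 to 2.82 CPM with MI-3454 and 1.11 to 2.97 CPM with DMSO. C1QTNF6, a secreted protein with a C1q domain, had the lowest mean of the 23 with the combination, at 5.51 ± 1.40 CPM, against 2.0 ± 0.149 CPM with gilteritinib, 2.30 ± 0.327 CPM with MI-3454 and 2.36 ± 0.774 CPM with DMSO.

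Trafficking and lipid genes were RAB4B, ADAP2 and ACBD4. RAB4B, a small GTPase of recycling endosomes, had 6.22, 7.36 and 11 CPM with the combination, against 2.07, 2.55 and 2.08 CPM with gilteritinib, 2.23, 3.61 and 2.01 CPM with MI-3454 and 2.52, 2.42 and 1.88 CPM with DMSO. All 3 combination libraries lay above the other 9, whose groups overlapped. ADAP2, which activates the GTPase of ARF proteins, averaged 9.48 ± 1.31 CPM with the combination, 3.34 ± 0.248 CPM with gilteritinib, 4.46 ± 1.2 CPM with MI-3454 and 4.26 ± 0.393 CPM with DMSO. The related ADAP1 averaged 42.9, 21.9, 23.2 and 24.0 CPM in the same order, which is 1.77 times DMSO with 0.5 CPM added. ACBD4, an acyl-CoA-binding protein, averaged 13.5 ± 1.95 CPM with the combination, 5.75 ± 0.628 CPM with gilteritinib, 6.40 ± 0.228 CPM with MI-3454 and 5.44 ± 1.1 CPM with DMSO.

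The remaining 8 genes act in protein and RNA handling or have less defined roles. FKBP11, a prolyl isomerase of the endoplasmic reticulum, had 21.1, 24.0 and 26.7 CPM with the combination, against 9.30 to 11.5 CPM with gilteritinib, 9.02 to 15.5 CPM with MI-3454 and 9.42 to 10.5 CPM with DMSO. UBE2V1, a partner of the ubiquitin-conjugating enzyme UBE2N, averaged 13.5 ± 4.09 CPM with the combination, 4.39 ± 0.959 CPM with gilteritinib, 5.77 ± 2.66 CPM with MI-3454 and 5.50 ± 0.577 CPM with DMSO. MI-3454 2, at 8.82 CPM, came within a small margin of combination 1, at 8.97 CPM. ZNF586, a zinc finger protein, averaged 14.9 ± 2.36 CPM with the combination, 5.63 ± 1.22 CPM with gilteritinib, 6.53 ± 2.77 CPM with MI-3454 and 5.17 ± 0.996 CPM with DMSO. TYW1B, a copy of the tRNA-modifying enzyme gene TYW1, averaged 11.9 ± 1.66 CPM with the combination, 5.53 ± 0.911 CPM with gilteritinib, 5.45 ± 1.32 CPM with MI-3454 and 4.55 ± 0.287 CPM with DMSO, while TYW1 had a log2 change of -0.26 ± 0.12 (SE) against DMSO. ANKHD1 and ANKAR, both ankyrin-repeat proteins, MSS51, named for a yeast activator of mitochondrial translation, and XNDC1N, which has a domain of the repair protein XRCC1, averaged 7.14 to 7.48 CPM with the combination. With DMSO these 4 averaged 2.84 to 3.40 CPM, and their ratios to the nearest group lay between 2.01 and 2.14.

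**Figure D2:**
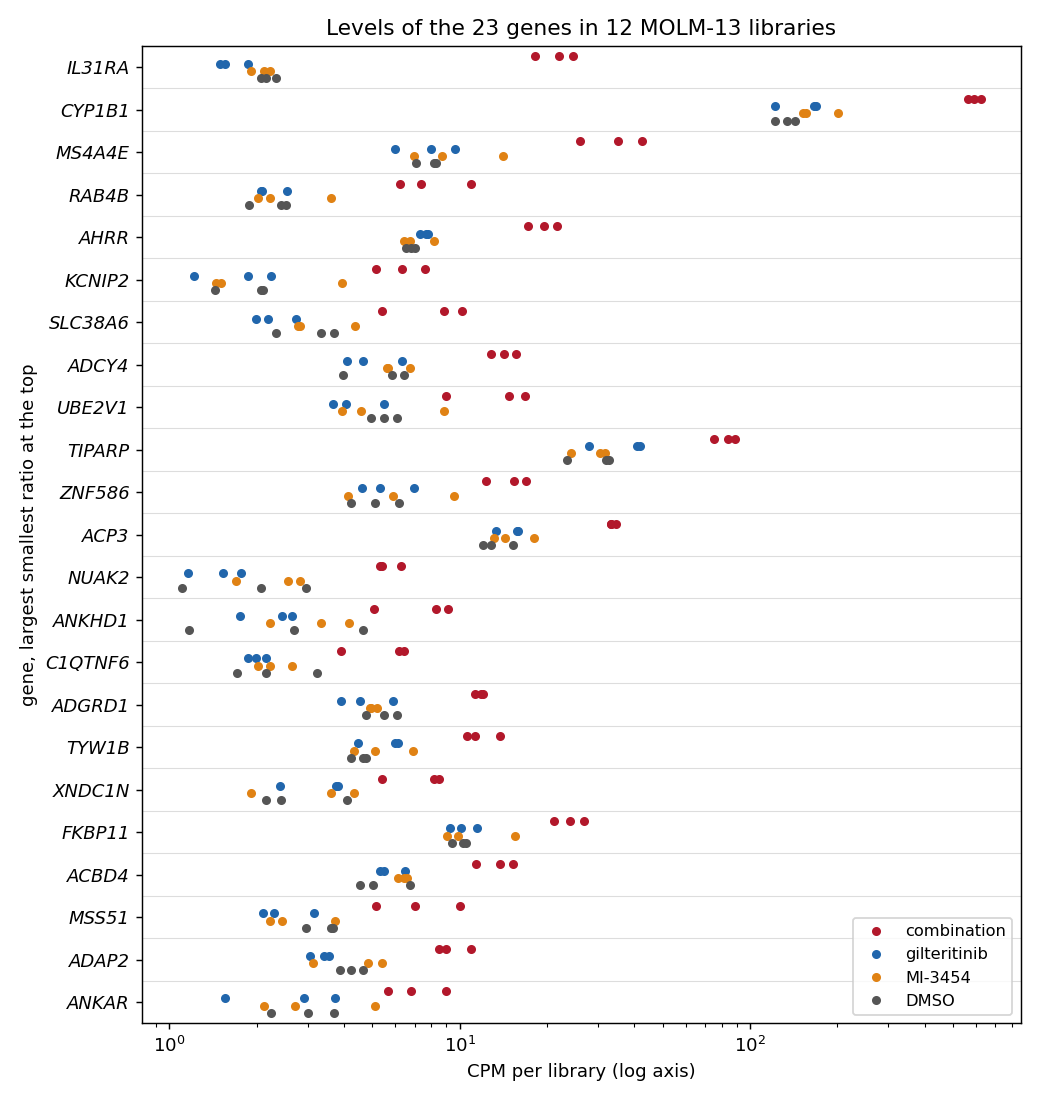
CPM of each of the 23 genes in the 12 libraries, on a log axis, with genes ordered by the smallest of their ratios to the other 3 groups and groups offset vertically within a gene. Every gene has its 3 combination libraries to the right of the other 9, with the widest gap for IL31RA, and MI-3454 2 is often the nearest of the others.

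All 3 combination libraries lay above the other 9 for 23 of 23 genes, as they did for 18.4% of 11487 tested protein-coding genes (12.9% with TMM scaling, where the 23 still all did). Most of the 23 lay close to the fold threshold. The smallest ratio was under 2.5 in 19 genes and under 2.1 in 8, and reached 3 in IL31RA, CYP1B1 and MS4A4E. It was the ratio to MI-3454 in 15 genes, to gilteritinib in 4 and to DMSO in 4. Just inside the fold threshold were ANKAR and ADAP2, both at 2.01, and just outside were ELMOD3 at 1.996 and CSAD at 1.97. On the level threshold, C1QTNF6 at 5.51 CPM and NUAK2 at 5.68 CPM were the nearest inside, and SPATC1 at 4.30 CPM and IGFLR1 at 3.85 CPM the nearest outside. At the lower edge of the gilteritinib band, MSS51 at 0.773 and SLC38A6 at 0.776 were inside, and FBP1 at 0.766 and MS4A6A at 0.755 outside. At the upper edge, TIPARP at 1.25 and TYW1B at 1.19 were inside, and CNR2 at 2.21 outside. At the upper edge of the MI-3454 band, CYP1B1 at 1.27 and MS4A4E at 1.25 were inside, and DPEP2 and RNF213, both at 1.31, outside. At its lower edge, MSS51 at 0.844 and ADGRD1 at 0.927 were inside, and HPD at 0.693 outside. Of the 141 genes past the fold, 48 were above the band with MI-3454 alone, 1 with gilteritinib alone and 47 with both, and 22 fell below a band.

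The same contrasts fitted across all 13972 tested genes with edgeR give the size and error of these differences, and nothing is read from their counts since the rule used these group means. All 23 genes passed the filter on low counts. In the quasi-likelihood test with Benjamini-Hochberg adjustment, 23 of 23 were higher with the combination than with DMSO, where 29.2% of all tested genes were higher and 57.5% differed in either direction. The figures were 23 of 23 against gilteritinib (30.1% of all, 60.4% in either direction) and 23 of 23 against MI-3454 (14.1%, 29.2% in either direction). The combination is shared by these 3 comparisons. Log2 changes against DMSO ran from 0.98 ± 0.24 (SE) for MSS51 to 3.19 ± 0.20 for IL31RA, with a median of 1.27, where the median of all tested genes was 0.00. Scaling by total counts moved the median of all genes by 0.10 and the split of all calls to 4612 higher and 3207 lower, against 4074 and 3963 with TMM scaling. The rule uses total counts. With TMM-scaled CPM the ratio to DMSO was 7.33 in place of 8.21 for IL31RA, 3.92 in place of 4.43 for CYP1B1 and 2.42 in place of 2.74 for AHRR.

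Under either single agent 0 of the 23 genes were called against DMSO, where 15.1% of all tested genes were with gilteritinib (6.92% higher) and 19.0% with MI-3454 (10.1% higher). DESeq2 also called 0. The band of the rule kept both single-agent means near DMSO, so few calls could arise and nothing is read from either count. At an unadjusted p under 0.05, 1 was past the edgeR test with gilteritinib, TIPARP, and 1 with MI-3454, CYP1B1. Of all tested genes, 30.1% were past it with gilteritinib and 30.7% with MI-3454, and the band limits these counts too. Same-numbered gilteritinib and DMSO libraries deviated together, and a fit with a block for replicate number called 2 with gilteritinib, TIPARP at a log2 change of 0.35 and CYP1B1 at 0.21, while the calls over all genes increased to 2474 higher and 2454 lower, against 967 and 1143 without the block. Without the 4 libraries highest in the signal recognition particle RNA RN7SL1, 1 from each group, CYP1B1 and TIPARP were called with gilteritinib and CYP1B1 with MI-3454 at 0.35. Without gilteritinib 2, TIPARP was called with gilteritinib. Of the 3 AHR genes, 2 thus passed the test under a single agent in some fits, at changes that the band of the rule admits.

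The interaction term measures how far the combination departs from the sum of both single-agent log2 changes. It was called positive for 17 of 23 genes, where 6.55% of all tested genes were and 15.3% were called in either direction. The rule fixes its direction. Its values ran from 0.71 ± 0.27 (SE) for TYW1B to 3.65 ± 0.30 for IL31RA, with 1.48 ± 0.15 for CYP1B1, 1.2 ± 0.20 for AHRR and 1.06 ± 0.19 for TIPARP. The 6 genes not called were ANKAR, ANKHD1, KCNIP2, TYW1B, XNDC1N and ZNF586. Leaving out 1 library at a time gave 13 to 21 calls among the 23.

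The make-up of the libraries moved with these levels. Reads placed uniquely but outside annotated exons made up 28.5%, 32.7% and 36.5% of uniquely placed reads in combination libraries 1, 2 and 3, against 15.6% to 17.8% with gilteritinib, 17.4% to 25.5% with MI-3454 and 16.6% to 20.4% with DMSO. Within the combination, 16 of 23 genes were highest in library 3 and lowest in library 1, the order of that share, as were 31.7% of tested protein-coding genes. Within the MI-3454 group, library 2 had the highest share, and 20 of 23 genes were highest there, against 42.9% of tested protein-coding genes. Median levels of the 23 relative to their DMSO means were 2.25, 2.55 and 2.72 in the combination libraries, 1.34 in MI-3454 2 and 0.879 to 1.05 in the other 8. CYP1B1, ACP3, ADGRD1, TIPARP and NUAK2 differed by under 1.2 times across the combination libraries, and 9 genes differed by 1.5 times or more, with MSS51 the widest at 1.95. The part of the read share in the result was not tested. In bulk RNA, a higher level per cell and a larger share of cells that express a gene cannot be told apart either. Of the marker lists for other cell types, B cell genes summed to 2.63 to 3.02 CPM with the combination, against 12.1 to 12.5 CPM with DMSO, with MS4A1, VPREB1, BLK and RAG2 at 0. In the monocyte and macrophage list, 6 of 10 tested genes (22 listed) rose and 2 fell against DMSO, summing to 594 to 614 CPM with the combination, against 284 to 294 CPM with DMSO. In the neutrophil maturation list 9 of 9 tested genes (18 listed) rose, summing to 961 to 979 CPM with the combination, against 292 to 327 CPM with DMSO. Megakaryocyte and platelet genes summed to 129.9 to 145 CPM with the combination, against 44.1 to 53.9 CPM with DMSO. Of the 3 tested genes in this list (15 listed) 1 rose and 2 fell. Fibroblast and endothelial genes summed to 507 to 532 CPM with the combination, against 162 to 199.6 CPM with DMSO. Of the 4 tested genes in that list (12 listed) 1 rose and 2 fell. Both higher sums thus came with more falling than rising genes. Lists lower with the combination were those of mast cells, basophils and eosinophils, at 38.1 to 44.7 CPM with the combination, against 202 to 234 CPM with DMSO, and of dendritic cells, at 19.6 to 21.2 CPM with the combination, against 51.0 to 62.0 CPM with DMSO. Stem and progenitor genes summed to 79.4 to 106 CPM with the combination, against 130.3 to 159 CPM with DMSO. Erythroid genes summed to 306 to 309.7 CPM with the combination, against 530.1 to 773 CPM with DMSO, and T and NK cell genes to 548 to 657 CPM, against 430.3 to 459 CPM with DMSO. Of 2 tested erythroid genes 1 rose and 1 fell, and of 5 tested T and NK cell genes 3 rose and 2 fell. Beside these counts, 29.2% of all tested genes rose. The 24 lists of cell types and pathways held none of the 23 genes, some of which stand in the lists added after they were known, and the part of these lists in the result was not tested.

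**Figure D3:**
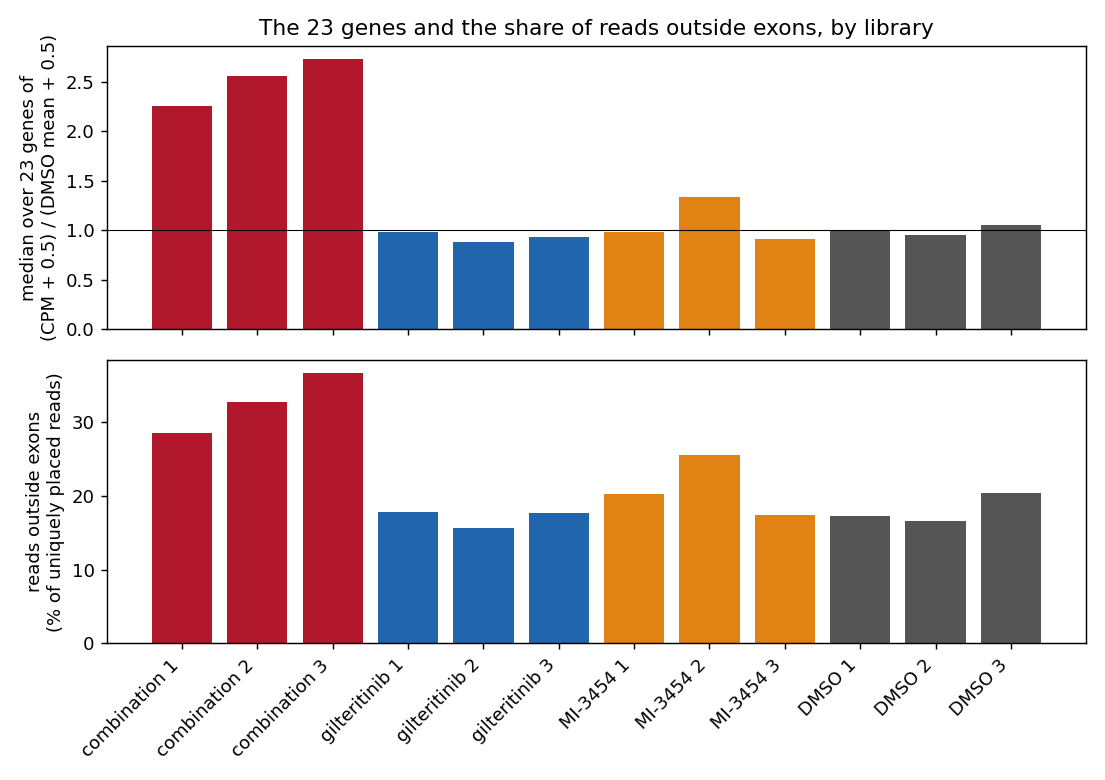
Upper bars show the median over the 23 genes of CPM relative to the DMSO mean, with 0.5 CPM added to both, in each library. Lower bars show the percent of uniquely placed reads outside annotated exons, and both are highest in combination 3 and, outside the combination, in MI-3454 2.

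The list of genes itself changed with how it was drawn, and RAB4B, AHRR, ADCY4 and ACP3 were selected in all 12 runs that left out 1 library. Another 6 genes, among them IL31RA and MS4A4E, were selected in 10 or 11 of these runs, and 13 in fewer, down to 7 for XNDC1N. Without MI-3454 2 the rule found 51 genes, 21 of them among the 23, and without combination 1 it found 38, with all 23 among them. Without MI-3454 3 it found 15 (12 shared) and without combination 3 it found 13 (13 shared). CYP1B1 was selected in 9 of the 12 runs. With TMM-scaled CPM the rule found 12 genes, of which 10 were among the 23: IL31RA, CYP1B1, MS4A4E, RAB4B, AHRR, KCNIP2, SLC38A6, ADCY4, UBE2V1 and ZNF586. The gains were DPEP2 and RNF213. Counts behind the lower members were small. The 10 genes under 10 CPM had 35 to 96 reads in each combination library and 10 to 52 in each other library.

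**Figure D4:**
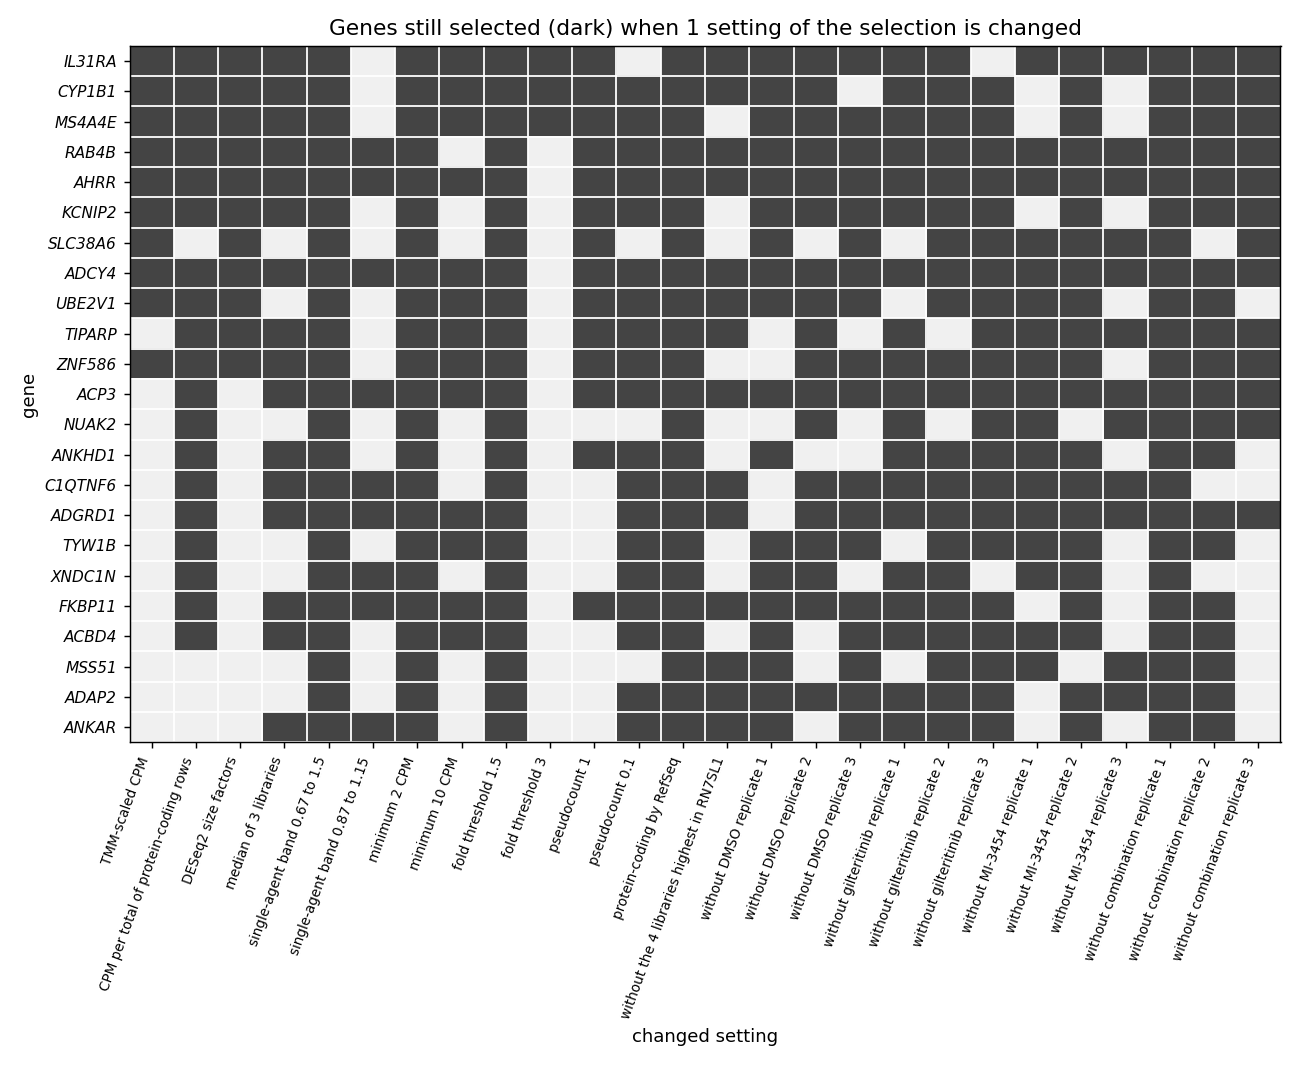
Each column is 1 changed setting of the selection and each row 1 of the 23 genes, dark where the gene was still selected. AHRR and ADCY4 drop out solely at a fold threshold of 3, which keeps IL31RA, CYP1B1 and MS4A4E.

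The 23 genes lay on 13 chromosomes, with at most 3 on 1 (chromosome 5), and had a median exon length of 4576 bases, against 5114 in tested protein-coding genes. Their nearest tested protein-coding neighbours, which the rule did not use, gave 46 genes, none of them among the 23. With the combination 18 of the 46 (39.1%) rose against DMSO and 11 fell, where 24.8% of tested protein-coding genes rose (edgeR, adjusted p under 0.05). Their median log2 change was 0.14. Neighbours named here were chosen after their values were seen. Both neighbours of IL31RA rose, SLC38A9 by a log2 change of 0.86 ± 0.15 (SE) and IL6ST, which encodes the shared receptor subunit gp130, by 0.70 ± 0.16. Both neighbours of ADCY4 rose, LTB4R, a leukotriene receptor, by 1.05 ± 0.11 and RIPK3, a kinase of necroptosis, by 0.71 ± 0.16. HBEGF, a growth factor beside ANKHD1, rose by 0.86 ± 0.16 and had 17.9, 17.5 and 20.5 CPM with the combination, against 7.55 to 10.5 CPM with gilteritinib, 8.68 to 10.6 CPM with MI-3454 and 8.09 to 11.1 CPM with DMSO. IL2RB, beside C1QTNF6, fell by 4.83 ± 0.62, and RAN, beside ADGRD1, by 1.03 ± 0.11. The neighbours of ANKAR and UBE2V1 did not pass the test.

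**Figure D5:**
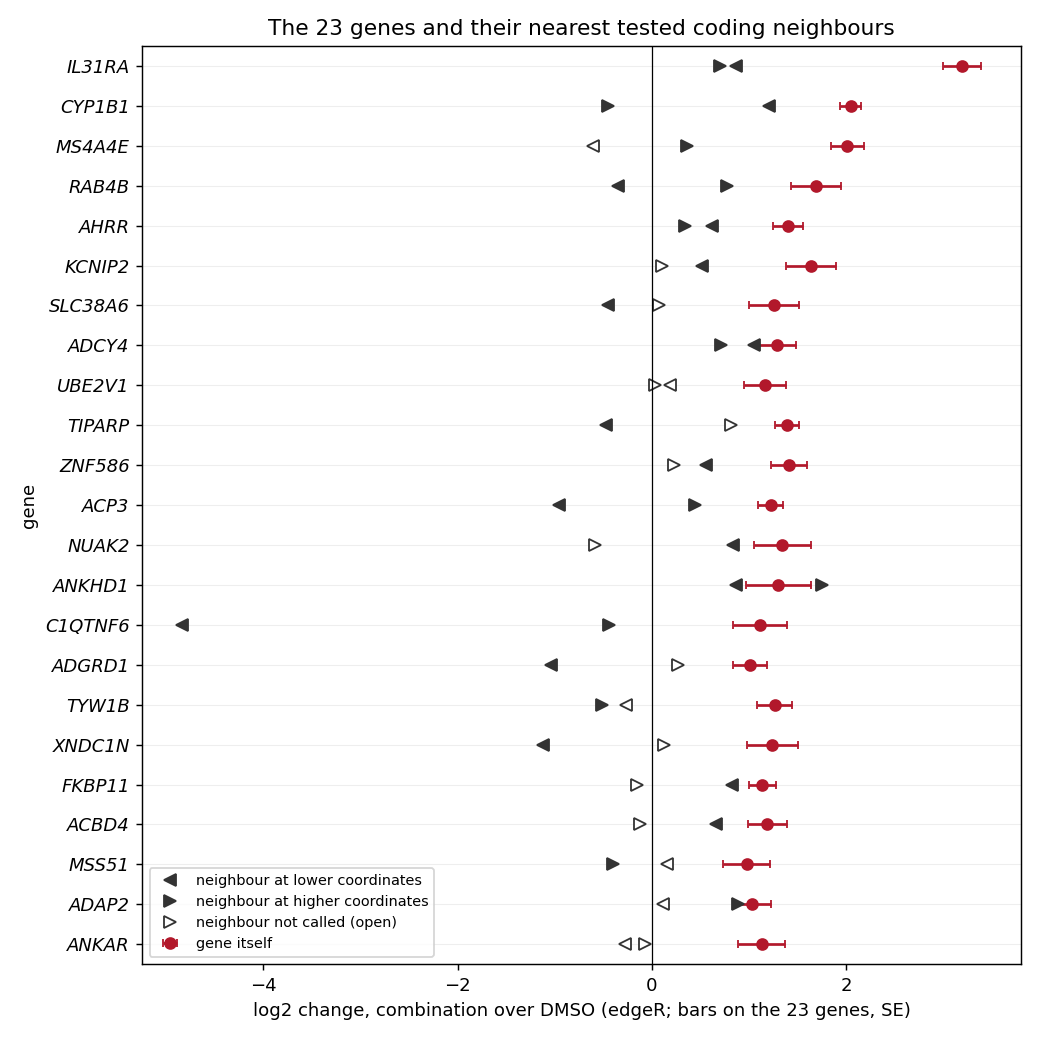
Log2 change of the combination against DMSO for each of the 23 genes (circles, with SE bars) and for its nearest tested protein-coding neighbour on either side (triangles, filled where the edgeR adjusted p is under 0.05). Of the 46 neighbours 18 rose and 11 fell, and ANKHD1-EIF4EBP3 is the one neighbour to the right of its own gene.

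Some of the 23 share sequence or position with other genes, and the sources used here do not state the strand setting of the counting. A known overlap therefore leaves the counts of both genes uncertain. Of the 23, 19 overlap another annotated gene and 9 overlap a tested one. Of 13 such tested genes, 9 on the other strand, 6 rose with the combination against DMSO and 2 fell. Of all tested genes, 29.2% rose and 57.5% were called in either direction. Most of the 13 are also among the neighbours counted above, so the counts of neighbours and of overlapping genes are not separate observations. CYP1B1-AS1, the antisense RNA of CYP1B1, had 7.01, 7.58 and 10.4 CPM with the combination, against 1.99, 2.33 and 1.86 CPM with gilteritinib, 1.67, 4.04 and 3.12 CPM with MI-3454 and 1.53, 2.33 and 2.55 CPM with DMSO. It rose by a log2 change of 1.84 ± 0.25 (SE) (edgeR adjusted p = 9.4e-06), and reads of CYP1B1 and of this RNA cannot be told apart here. RMDN2, which also overlaps CYP1B1 on the other strand, rose by 1.21 ± 0.22. ANKHD1-EIF4EBP3, a readthrough of ANKHD1 on the same strand, averaged 4.10 CPM with the combination, 0.788 CPM with gilteritinib, 1.67 CPM with MI-3454 and 1.07 CPM with DMSO, and rose by 1.75 ± 0.36. AHRR overlaps PDCD6, which rose by 0.62 ± 0.15, and a processed pseudogene without a symbol, which rose by 1.51 ± 0.34. Counts of UBE2V1, RAB4B, TYW1B, XNDC1N and MS4A4E are likewise uncertain, since near copies or readthrough genes can share their reads. The readthrough genes RAB4B-EGLN2, MIA-RAB4B and PEDS1-UBE2V1 had 0 CPM in all 4 groups, so no reads were assigned to them. Reads ambiguous between genes made up 4.65% to 5.82% of uniquely placed reads in the combination libraries, below the share of every other library. The part of this share in the result was not tested.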

How the data were processed

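RNA of 12 MOLM-13 libraries was measured by RNA-seq. The authors deposited whole-number read counts per gene, 1 file per library. Per the submitters' processing notes, cutadapt 2.1, STAR 2.7.1a, HTSeq 0.11.2 and DESeq2 were used with GRCh38. The sources used here name no annotation release. Groups follow the sample titles: in 2 of 3 libraries of each group with MI-3454 the treatment label ends in another number.

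The 5 summary rows were left out of totals. CPM is a count divided by the library's total of gene counts and scaled to the usual unit. Biotypes and coordinates came from GENCODE 29, which matched 58516 of 60668 rows, and symbols matched 60295. The 23 genes, the gene lists and the named neighbours were chosen with earlier results of these data known. The AHR, receptor, family and copy lists were added after the 23 were known.

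Counts were tested in R 4.3.3 with edgeR 4.0.16 (quasi-likelihood, TMM, filterByExpr over 4 groups), which kept 13972 of 30849 genes with a count. Pairs of groups were fitted alone and the interaction over 12 libraries. Scripts were tested on simulated data. Adjusted p under 0.05 is a call. Alternatives used DESeq2 1.42.0, total-count scaling, no filter beyond 1 count, libraries left out and a replicate block. For gilteritinib and DMSO, deviations from the group mean correlated between same-numbered libraries at 0.14, 0.39 and 0.11. Libraries of different numbers were not compared, so pairing by number was not established. The main fits used no block. Named genes are all 23, the nearest genes on both sides of each threshold, and genes of the added lists. Neighbours and genes of the added lists were named after their values were seen. Intervals cover counting error only.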

Additional observations from a re-analysis of the deposited data

Results flagged for a closer look

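The effect of gilteritinib differed with and without MI-3454, by the interaction term of the edgeR fit over 12 libraries, for 8 of 50 tested genes that lie beside or overlap one of the 23 and that the rule did not use. Among the 46 neighbours alone 7 passed (15.2%), close to the 15.3% of all tested genes, so their number does not stand apart. CYP1B1-AS1, which overlaps CYP1B1, had an interaction of 1.38 ± 0.42 (SE) on the log2 scale (edgeR adjusted p = 0.0379, 0.0077 to 0.0883 over 17 alternatives). Reads of this RNA and of CYP1B1, which the rule selected, cannot be told apart here. This p-value is therefore not independent of the rule. HBEGF beside ANKHD1 had 0.93 ± 0.23 (adjusted p = 0.0133, 0.0037 to 0.0376), and it passed the test under every alternative run. PDCD6 beside AHRR had 0.70, RIPK3 beside ADCY4 had 0.69 and ARMH3 beside KCNIP2 had 0.47. RAC2 beside C1QTNF6 had -0.93, RAN beside ADGRD1 had -0.53 and FAM86C1P beside XNDC1N had -1.12. Apart from HBEGF, each of these missed the threshold under 4 to 10 of its 17 alternatives, most of them runs with a library left out.

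Reads outside annotated exons, which no comparison of genes used, averaged 32.6% ± 4.02 with the combination and 18.1% ± 2.03 with DMSO (SD over 3 libraries, as a share of reads with 1 place in the genome). The combination libraries all lay above those of the other groups.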

How the results depend on the processing

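The number of genes that the rule finds depended on its settings. In place of 23 it found 12 with TMM-scaled CPM, 14 with DESeq2 size factors, 36 with the median of 3 libraries, 44 and 9 with a wider and a narrower single-agent band, 36 and 13 with minimum levels of 2 and 10 CPM, 220 and 3 with folds of 1.5 and 3, and 13 to 51 with 1 library left out. It found 19 with CPM per protein-coding total, 17 and 24 with 1 and 0.1 CPM added, 23 with RefSeq biotypes and 25 without the 4 libraries highest in RN7SL1.

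With 1 library left out, the genes called over the whole table numbered 3484 to 4216 higher against DMSO, 3662 to 4108 higher against gilteritinib, 1158 to 2404 higher against MI-3454 (1973 with all libraries, 1261 without MI-3454 1, 1169 without combination 2 and 1158 without combination 3), 1243 to 3985 under gilteritinib, 1815 to 2961 under MI-3454 and 590 to 1167 for a positive interaction (590 without combination 3, against 915). Called among the 23 were 23 against DMSO and gilteritinib, 20 to 23 against MI-3454, 0 to 1 under gilteritinib, 0 under MI-3454 and 13 to 21 for the interaction. For gilteritinib vs DMSO, calls numbered 2110 with all libraries and 1243 to 1401 without any 1 of its own libraries, DMSO 1 or DMSO 3, and 3985 without DMSO 2. Without the 4 libraries highest in RN7SL1 they were 4250, with 2 of the 23, the interaction gave 1420 and MI-3454 called 1 of the 23. With all 12 libraries in 1 fit MI-3454 also called 1.

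With the replicate block, gilteritinib vs DMSO called 4928 genes and 2 of the 23, and MI-3454 vs DMSO called 1678 in place of 2658. Pairing by number was not established for any comparison, and in the other comparisons same-numbered libraries did not all deviate together. The block thus rests on a number alone. Total-count scaling gave 4993 higher and 3157 lower against gilteritinib (4210 and 4230 with TMM), 2462 and 1442 against MI-3454 (1973 and 2103) and 1113 and 809 for the interaction (915 and 1221). Among TMM-selected genes the GCGTG share was 44.4% in place of 60.0%, the TTGCNNAA share 11.1% in place of 5.00% and the GAAANNGAA share 0%, and 54.2% of their neighbours rose, against 39.1%. Of the recomputed smallest ratios of the 23, 574 moved by less than the relative SD of the combination libraries and 24 by more. The 574 include settings that cannot move a ratio, namely the band, the minimum level, the fold threshold and the source of biotypes. They are therefore no measure of how stable the ratios are. The cause of these changes was not tested. Genes under 10 CPM are limited by depth.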
